A study of Mus musculus with 12 samples.

Results

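The 46 genes described here encode proteins that join the 2 sides of a synapse and the scaffold that lies under the receiving side. They were chosen by symbol from a list of neurexins, neuroligins, leucine-rich repeat adhesion proteins, cerebellins, receptor phosphatases and postsynaptic density scaffolds, with no threshold on a measured value. Each of the 46 symbols matched exactly 1 of the 55487 gene identifiers in the counts, and all 46 passed the filter on low counts in both tissues studied. They fall into 11 presynaptic or secreted organizers, 19 adhesion proteins and latrophilins, most of them known from the postsynaptic membrane, and 16 scaffold, CaMKII and dendrin genes.

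Neurexins and the receptor phosphatases Ptprd, Ptprs and Ptprf sit in the axon terminal and bind partners across the synaptic cleft, among them neuroligins, LRRTM proteins, SLITRK proteins and, through secreted cerebellins, glutamate receptors of the delta type. On the receiving side the adhesion proteins and glutamate receptors are held by membrane-associated guanylate kinases of the DLG family, which DLGAP proteins link to SHANK and HOMER proteins. CaMKII is the abundant kinase of this postsynaptic density, and in forebrain the amounts of many of these proteins rise as synapses form in the first weeks after birth.

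The study sequenced RNA of 12 male mice, each a sample of its own, 3 in each of 4 groups. At postnatal day 0 (P0), whole forebrain came from mice in which exon 7 of Auts2 had been deleted by the Cmv-cre transgene, which acts in all tissues (Auts2-ex7 KO), and from wild-type littermates of BL6 background. At postnatal day 14 (P14), hippocampus came from mice carrying the same floxed allele and Nes-cre, which is active in neural progenitors and in the neurons and glia they give rise to, and from controls labelled auts2-ex7-fl-het. Whether these P14 controls also carried Nes-cre is not given in the sources used here, so they either kept both working copies or had lost 1. The labels of the P0 and P14 knockouts both read auts2-ex7koko, taken here to mean that both copies were targeted. Auts2, the targeted gene, is a regulator of brain development.

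Libraries held 11247150 to 16796797 counts at P0 and 16830720 to 23340621 at P14. Counts cover the whole Auts2 gene and cannot show the loss of exon 7: Auts2 stood at 160.2, 136 and 155 CPM (counts scaled to a common library total) in replicates 1, 2 and 3 of the P0 wild type and at 164, 182 and 161 in the P0 knockouts, and at 97.3, 97.8 and 110.2 in the P14 controls and 92.9, 77.5 and 75.1 in the P14 knockouts. Here and below, values in a series are replicates 1, 2 and 3, and CPM are scaled by the trimmed mean of M-values (TMM) method over all 12 libraries. Markers of the labelled tissues were present: Neurod6 of excitatory forebrain neurons had a mean of 299.6 CPM in the P0 wild type, and in the P14 controls Prox1 of dentate granule cells had 191 CPM and Wfs1 of CA1 pyramidal cells had 165 CPM. The P0 libraries came in 2 number series, with replicates 1 and 2 of each group in the first and replicate 3 of each group in the second. The sum of 5 choroid plexus markers varied widely among the P14 libraries, at 146, 954 and 2507 CPM in the controls and 1343 to 1996 CPM in the knockouts. The number of calls at P14 changed most when replicate 3 of the controls was left out, and counts are given with and without it.

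Before genotype was considered, the control groups showed how far these genes differ between newborn forebrain and P14 hippocampus. The scaffold and CaMKII genes were all higher at P14: 16 of 16 rose, with a median log2 difference of 1.30. The presynaptic and secreted organizers mostly lay the other way, with 2 that rose, 7 that fell and a median of -0.56, and of the adhesion proteins 12 rose and 4 fell, with a median of 0.50. Over all members 41 of 46 passed edgeR's quasi-likelihood test at a Benjamini-Hochberg adjusted p under 0.05 (30 higher, 11 lower, median 0.64), but so did 64% of the 18189 genes tested, 32.3% higher and 31.7% lower. Age, tissue, control genotype and library number series differ together in this comparison and cannot be told apart. In bulk tissue, fewer cells of a type and less RNA per cell cannot be told apart either, here and in the comparisons that follow.

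The widest changes were in the postsynaptic density. Camk2a, the alpha subunit of CaMKII, rose from 154 ± 15.7 CPM (SD, n = 3) in newborn forebrain to 4051 ± 36.8 CPM in P14 hippocampus, a log2 difference of 4.72 (SE 0.10). Ddn, which encodes dendrin, a dendritic and postsynaptic protein, rose from 45.0 ± 6.76 to 1188 ± 102 CPM, a log2 difference of 4.73 (SE 0.12). Dlgap1 and Dlgap2, which tie DLG proteins to SHANK, rose by 1.88 and 1.96 on the log2 scale, and Shank3, the scaffold at the base of the density, by 1.80. These differences were far larger than the spread between the 3 libraries of either group.

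The steepest falls were in secreted and adhesion genes. Cbln1, a cerebellin that bridges neurexins and delta receptors, fell from 62.4 ± 10.3 to 7.45 ± 1.26 CPM (log2 difference -3.07 (SE 0.22)), and Cbln2 from 63.7 ± 3.87 to 10.7 ± 2.44 CPM (log2 difference -2.58 (SE 0.18)). Slitrk6 fell from 9.81 ± 1.49 to 2.15 ± 0.320 CPM. Of the 4 cerebellar granule markers, Gabra6 was at 0 in the P0 wild type and at 0.0955 CPM in the P14 controls, and Barhl1 at 1.91 and 0.241 CPM. Cbln3, a granule cell cerebellin, had 7 to 29 counts per library. The fourth, Neurod1, which other neurons also express, had 30.1 and 73.7 CPM. Ptprs, Nlgn2, Cbln3, Slitrk1 and Flrt1 did not pass the test between the control groups.

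**Figure D1:**
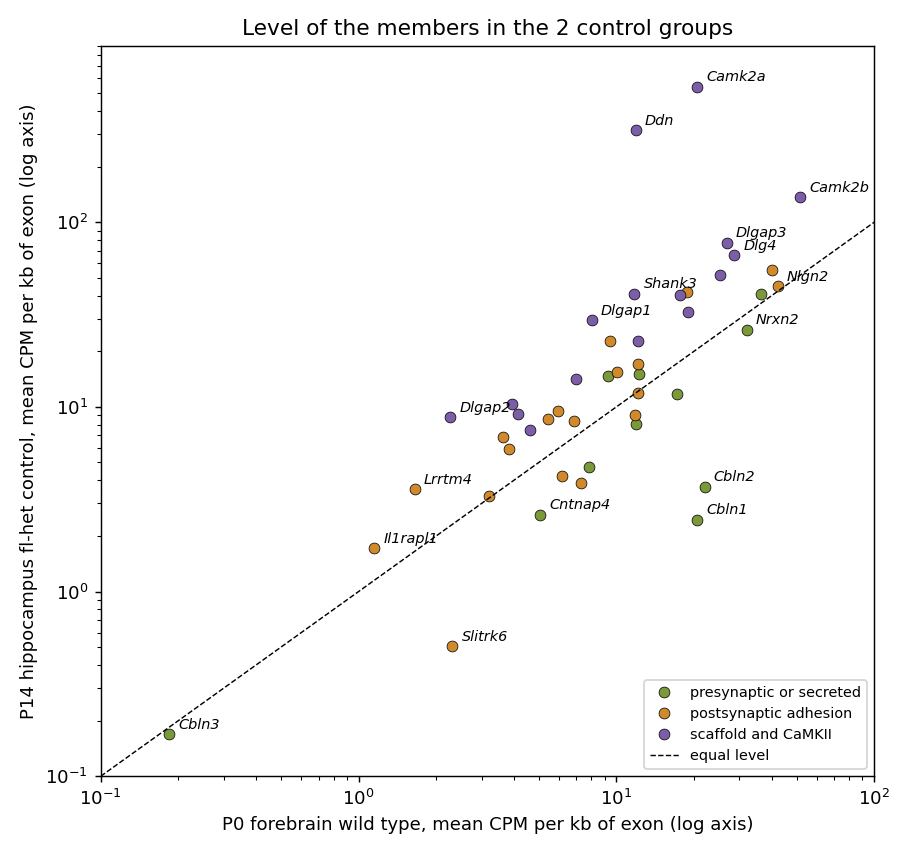
Mean CPM per kb of annotated exon of the 46 genes in the P0 wild type (x axis, log scale) and the P14 fl-het controls (y axis, log scale), 1 point per gene, n = 3 libraries per group. Points above the dashed line were higher at P14; all 16 scaffold and CaMKII genes lie above it, and Cbln1, Cbln2 and Slitrk6 lie farthest below.

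Divided by the merged length of all annotated exons of each gene, the order of levels also changed between the groups. This length can exceed that of the transcripts expressed, so the ranks depend on the annotation. In newborn forebrain the 3 highest members were Camk2b at 51.6 CPM per kb, Nlgn2, the neuroligin of inhibitory synapses, at 42.4, and Adgrl1, a latrophilin, at 40.0. Antisense genes cover 15.6% of the exonic bases of Adgrl1. Between Nlgn2 (224, 234 and 276 CPM) and Adgrl1 (337, 309.6 and 384 CPM) the difference per kb is within the spread of the libraries. In P14 hippocampus the order was Camk2a at 543, Ddn at 314 and Camk2b at 137 CPM per kb. The lowest members were Cbln3 (0.184 at P0 and 0.169 at P14) in both groups, with Il1rapl1 at 1.15 and Lrrtm4 at 1.65 next at P0 and Slitrk6 at 0.507 and Il1rapl1 at 1.71 next at P14.

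Camk2b, the beta subunit of CaMKII, had 472, 452 and 488 CPM in the P0 wild type and 1301, 1231 and 1209 CPM in the P14 controls, and its knockouts overlapped the controls at both ages (467, 454 and 497 and 1265, 1241 and 1176 CPM). Cbln3 had 0.587, 1.21 and 0.885 CPM in the P0 wild type and 0.635, 0.781 and 1.05 CPM in the P14 controls, so that its highest library was well above its lowest in each group. Its knockouts had 1.35, 0.993 and 1.15 CPM at P0 and 1.44, 1.11 and 0.572 CPM at P14, overlapping the controls each time.

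Il1rapl1, a postsynaptic partner of Ptprd, had 10.4, 11.1 and 10.8 CPM in the P0 wild type and 11.7, 9.27 and 8.52 in the P0 knockouts, and 15.5, 15.2 and 17.3 and 16.5, 13.3 and 15.6 at P14, with overlap at both ages. Slitrk6 had 8.64, 11.5 and 9.29 CPM in the P0 wild type and 8.26, 8.20 and 8.52 in the P0 knockouts, all of them lower, and 2.48, 2.12 and 1.84 and 1.79, 1.53 and 1.97 at P14, where the groups overlapped. Lrrtm4 had 9.82, 11.7 and 9.01 CPM in the P0 wild type and 6.75, 7.62 and 11.4 in the P0 knockouts, with knockout 3 among the wild types.

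In the forebrain of newborn Cmv-cre knockouts 1 member, Ddn, changed, and it fell. The other 45 did not pass the test, and 34 of them had lower fitted values in the knockouts and 11 higher. A fit with the library series as a term called 4 members, all lower (Cntnap4, Adgrl3, Shank3 and Ddn), and 2.87% of all tested genes. Over all tested genes the fitted values were lower for 50.1% and higher for 49.9%. The share of members called was 1 of 46, against 0.909% of the 16176 genes tested (0.192% higher, 0.717% lower). In 12 members every knockout library was below every wild-type library and in 0 every one was above, where 21.8% of all tested genes had groups that do not overlap, 11.1% with the knockouts lower and 10.7% with them higher. The median log2 fold change of the members was -0.14, within a range of -0.77 to 0.37, and the median over all tested genes was 0.00. At an unadjusted p under 0.05, 14 of 46 members and 16.1% of all tested genes were counted.

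Ddn (ENSMUSG00000059213) lies on chromosome 15 of GRCm38 from 98803777 to 98809490 on the minus strand, and an antisense gene covers 4.68% of its exonic bases. It stood at 48.9, 48.9 and 37.2 CPM in the P0 wild type and at 24.4, 25.9 and 28.9 CPM in the knockouts. All 3 knockouts lay below the lowest wild-type library, which was replicate 3, the library of the second series. The log2 fold change was -0.77 (SE 0.12), with an edgeR Benjamini-Hochberg adjusted p of 0.0187. In the first series alone it was -0.96, and in the single pair of the second series -0.36, the same direction. The call was lost when any of 4 libraries was left out (knockout 1, knockout 2, wild type 1 or wild type 2), with log2 fold changes of -0.88 to -0.70 over the 6 fits.

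Among the presynaptic and secreted genes, 9 of 11 had lower fitted values at P0 and none passed the test. Cntnap4, a contactin-associated protein found in interneurons, had 31.6, 34.7 and 29.0 CPM in the wild type and 25.3, 22.6 and 23.4 CPM in the knockouts. Its groups did not overlap, and its log2 fold change of -0.42 (SE 0.10) had an edgeR Benjamini-Hochberg adjusted p of 0.0706. With the library series as a term it passed, at -0.42 (edgeR Benjamini-Hochberg adjusted p = 0.0366). An antisense gene covers 8.01% of the exonic bases of Cntnap4. Cbln2 had 59.7, 67.4 and 64.0 CPM in the wild type and 45.2, 37.7 and 60.7 CPM in the knockouts, where replicate 3 lay inside the wild-type range and the other knockouts well below it. Its log2 fold change was -0.41 (SE 0.14) (edgeR Benjamini-Hochberg adjusted p = 0.201).

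Both neurexins measured had lower fitted values at P0, -0.10 for Nrxn2 and -0.17 for Nrxn3 on the log2 scale. For Nrxn3 all wild-type libraries (124, 114 and 112 CPM) were above all knockouts (107, 107 and 98.1 CPM), with a gap between the groups smaller than the SD within either. Ptprs, a receptor phosphatase, had the other direction, with 519, 524 and 595 CPM in the wild type and 581, 592 and 663 CPM in the knockouts. There the groups overlapped only through wild type 3, and the log2 fold change was 0.16 (SE 0.08) (edgeR Benjamini-Hochberg adjusted p = 0.348).

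Of the 19 adhesion proteins and latrophilins, 14 had lower fitted values at P0. Adgrl3, a latrophilin that binds FLRT proteins and teneurins, had 116, 108 and 104 CPM in the wild type and 90.6, 93.6 and 74.9 CPM in the knockouts. All knockouts were below all wild types, and the log2 fold change was -0.35 (SE 0.09) with an edgeR Benjamini-Hochberg adjusted p of 0.0855, or 0.0233 with the library series as a term. An antisense gene covers 8.91% of the exonic bases of Adgrl3. Adgrl3 is the only member on chromosome 5, the chromosome of Auts2. Slitrk4, a partner of receptor phosphatases, had 32.1, 30.0 and 32.8 CPM in the wild type and 32.4, 26.8 and 21.9 CPM in the knockouts, where knockout 1 overlapped the wild type. Its fitted log2 fold change was -0.24 (SE 0.13), and it rested on the second series: -0.07 in the first and -0.57 in the pair of the second. Nlgn2 had 224, 234 and 276 CPM in the wild type and 255, 279 and 296 CPM in the knockouts, overlapping, with a log2 fold change of 0.17 (SE 0.09).

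The scaffold genes other than Ddn were mostly close to level in fitted value at P0, with a median over all 16 scaffold, CaMKII and dendrin genes of -0.08. Shank3 (ENSMUSG00000022623; chromosome 15, 89499623 to 89560261, plus strand) had the lowest fitted value of the SHANK genes. An antisense gene covers 2.95% of its exonic bases. The wild types had 110.0, 104 and 110.0 CPM and the knockouts 73.7, 81.0 and 101 CPM. The groups did not overlap, but knockout 3 came close to the wild types, and the log2 fold change of -0.35 (SE 0.10) had an edgeR Benjamini-Hochberg adjusted p of 0.12. Shank3 was called lower without knockout 3, at -0.49 (edgeR Benjamini-Hochberg adjusted p = 0.00156), and with the library series as a term, at -0.36 (edgeR Benjamini-Hochberg adjusted p = 0.0387).

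Dlgap2 had 16.4, 12.5 and 13.1 CPM in the wild type and 12.8, 10.9 and 9.43 CPM in the knockouts at P0, with overlap and a log2 fold change of -0.34 (SE 0.15). Homer2, which crosslinks SHANK and group I metabotropic glutamate receptors, had 47.3, 49.1 and 52.8 CPM in the wild type and 45.0, 42.9 and 34.0 CPM in the knockouts. No knockout reached the lowest wild type, and the log2 fold change was -0.30 (SE 0.11) (edgeR Benjamini-Hochberg adjusted p = 0.192). Dlg3 had the highest fitted value of the DLG genes, 0.05 (SE 0.08), with 104, 106 and 99.97 CPM in the wild type and 113, 107 and 102 CPM in the knockouts, so its groups overlapped.

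The P0 counts depended on the library series. A fit to the 4 libraries of the first series called 13 members, 3 higher (Ptprs, Nlgn2, Adgrl1) and 10 lower (Ptprf, Cntnap4, Cbln1, Cbln2, Cbln4, Lrrtm4, Adgrl3, Shank3, Camk2a, Ddn), where 12.9% of all tested genes were called, 5.82% higher and 7.13% lower. Of these 13, 10 had the same sign in the second-series pair. The others were Cbln1, at -0.41 in the first series and 0.32 in the second, Lrrtm4, at -0.58 and 0.33, and Cbln4, at -0.58 and 0.07. The second series holds 1 library of each group, so its difference has no replicate. Leaving out knockout 3 alone gave 6 called members, all lower (Ptprf, Cntnap4, Cbln2, Cbln4, Shank3 and Ddn), against 4.69% of all tested genes (1.54% higher, 3.15% lower). Of the members whose fitted value over all P0 libraries is given above, it moved 6 by more than 1.5 times: Slitrk4 to -0.10, Homer2 to -0.18, Cbln2 to -0.62, Nrxn2 to -0.18, Ptprs to 0.10 and Dlg3 to 0.09. Other members moved by more than 1.5 times as well. Among them were Lrrtm4 (-0.23 to -0.50), Il1rapl1 (-0.14 to -0.04), Cbln1 (-0.16 to -0.29) and Ptprf (-0.16 to -0.24).

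Markers of some cell types also differed between the P0 groups. The 8 dentate granule markers summed to 181 to 206 CPM in the wild type and 148 to 152 CPM in the knockouts (2 of 8 called lower, Calb1 and Pdzd2), and the 5 astrocyte markers to 418 to 561 and 373 to 381 CPM (1 of 5 called lower, Aqp4). Sums were also lower in every knockout for the striatal list (197 to 237 and 179 to 188 CPM, Tac1 called lower), the microglial list (51.8 to 65.5 and 44.8 to 51.6 CPM, P2ry12 called lower), the oligodendrocyte precursor list (208 to 235 and 183 to 187 CPM) and the oligodendrocyte list (104 to 107 and 89.98 to 103 CPM).

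Sums were higher in every P0 knockout for the choroid plexus list (649 to 824 CPM in the wild type and 877 to 972 CPM in the knockouts), the CA pyramidal list (625 to 739 and 741 to 875 CPM) and the cerebellar granule list (30.1 to 35.6 and 35.7 to 42.2 CPM), with 0 called. Each sum was mostly 1 gene: Ttr, Mpped1 and Neurod1 had wild-type means of 735, 426 and 30.1 CPM. Fitted values went both ways: 3 of 4 choroid plexus, 3 of 6 CA pyramidal and 2 of 3 cerebellar granule genes tested were higher. Sums of the deep-layer cortex list (Fezf2 called higher) and the thalamus list (Prkcd called lower) overlapped, and so did those of the interneuron, endothelial and progenitor lists, with 0 called. Slc17a7, the vesicular glutamate transporter of maturing excitatory neurons, fell (log2 fold change -0.54, edgeR Benjamini-Hochberg adjusted p = 0.0368). The 5 pan-neuronal markers overlapped, at 4059 to 4282 and 3903 to 4101 CPM, with 0 of 5 called. Gabra6 of the cerebellar list was at 0 in the P0 wild type, and the part of these shifts in the members' values was not tested.

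**Figure D2:**
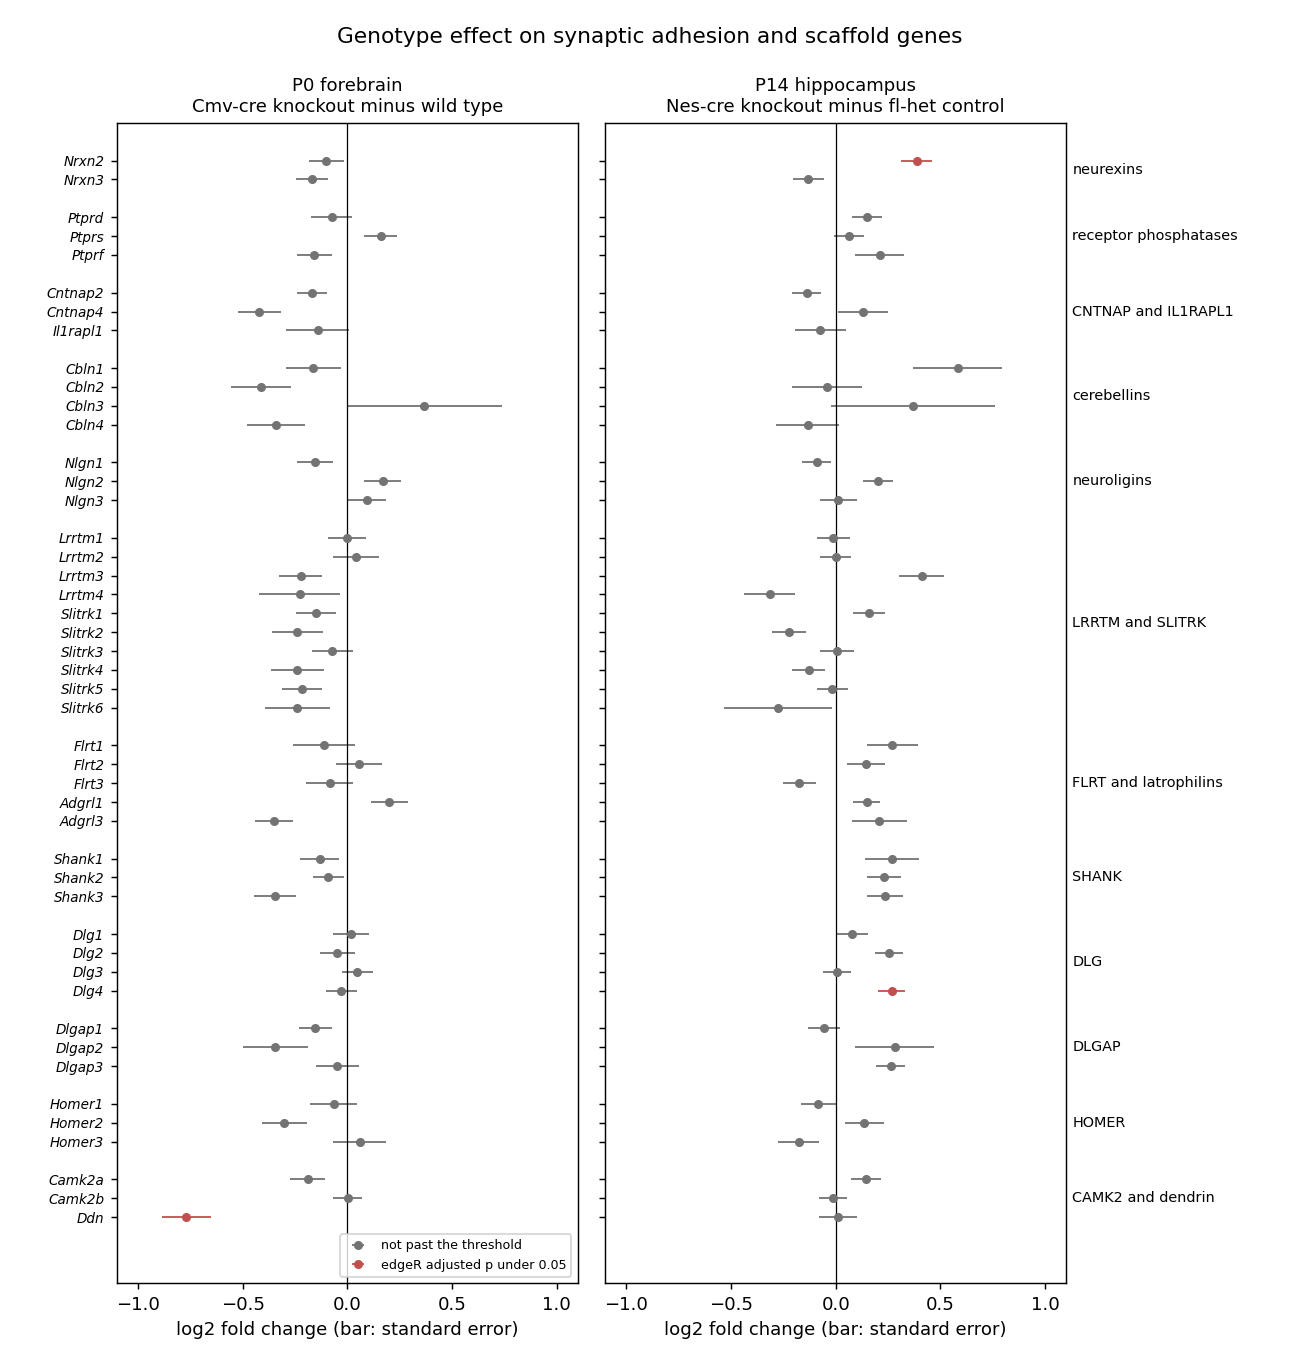
Log2 fold change of each of the 46 genes, knockout minus control, in P0 forebrain (left) and P14 hippocampus (right), grouped by role, with bars of 1 SE, n = 3 libraries per group. Red points passed the edgeR test: Ddn, at -0.77, on the left, and Nrxn2, at 0.39, and Dlg4, at 0.27, on the right.

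In P14 hippocampus 2 members rose in the Nes-cre knockouts, Nrxn2 and Dlg4, and none fell. They were 2 of 46, where 1.99% of the 17208 genes tested were called (1.21% higher, 0.773% lower). Fitted values were higher in the knockouts for 29 members and lower for 17, where 48.5% of all tested genes were higher and 51.5% lower. The groups did not overlap in 14 members, 9 higher and 5 lower, against 20% of all tested genes (9.41% higher, 10.6% lower). The median log2 fold change of the members was 0.07, within -0.32 to 0.58, against -0.01 over all tested genes, and 15 of 46 had an unadjusted p under 0.05, against 15.2% of all tested genes.

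Nrxn2 (ENSMUSG00000033768; chromosome 19, 6418731 to 6544169, plus strand), a presynaptic neurexin, had 352, 338 and 397 CPM in the P14 controls and 477, 469 and 464 CPM in the knockouts. Antisense genes cover 6.44% of its exonic bases. The knockouts lay close together and above every control, and control 3 was the control nearest to them. The log2 fold change was 0.39 (SE 0.07), with an edgeR Benjamini-Hochberg adjusted p of 0.0143. Nrxn3 was lower in fitted value, at -0.13 (SE 0.07), with overlapping groups (192, 172 and 189.8 CPM in the controls and 167, 176 and 159 CPM in the knockouts). A fit with an offset for GC content brought Nrxn2 to 0.29, past the threshold no longer (edgeR Benjamini-Hochberg adjusted p = 0.0718).

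Dlg4 (ENSMUSG00000020886; chromosome 11, 70016942 to 70047522, plus strand) encodes PSD-95, the main scaffold of the excitatory postsynaptic density. The P14 controls had 906, 866 and 863 CPM and the knockouts 1034, 1083 and 1030 CPM. All 3 knockouts were above all 3 controls, and the log2 fold change was 0.27 (SE 0.07), close to the threshold at an edgeR Benjamini-Hochberg adjusted p of 0.049. Dlg2, which encodes PSD-93, had 535, 502 and 554 CPM in the controls and 624, 641 and 618 CPM in the knockouts, also without overlap, and a log2 fold change of 0.26 (SE 0.07) that missed the threshold (edgeR Benjamini-Hochberg adjusted p = 0.069). Dlg1 and Dlg3 had fitted values of 0.08 and 0.01.

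**Figure D3:**
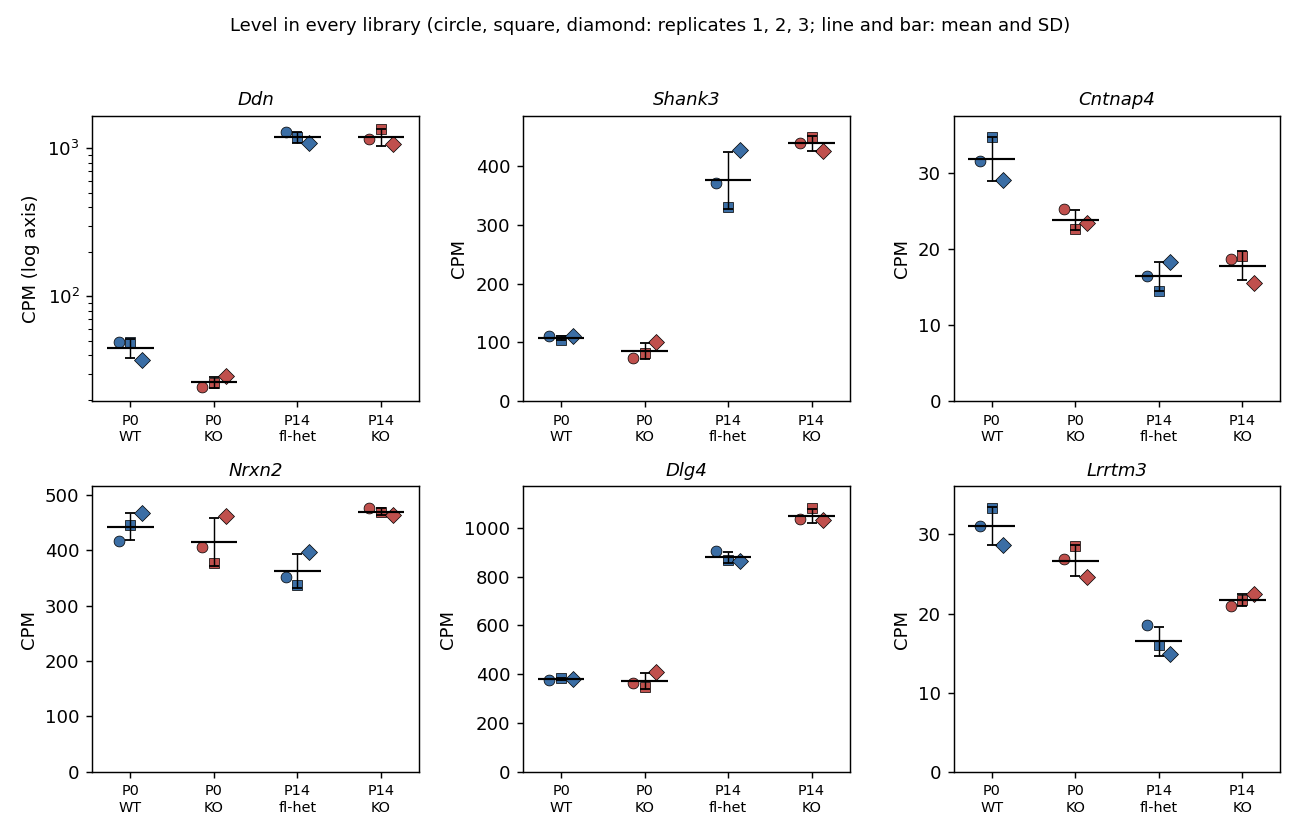
CPM in every library (y axis; log scale for Ddn) of 6 members by group, with circle, square and diamond for replicates 1, 2 and 3, lines at the mean and bars of 1 SD, n = 3. Ddn is lower in all 3 P0 knockouts than in any P0 wild type, and Nrxn2, Dlg4 and Lrrtm3 are higher in all 3 P14 knockouts than in any P14 control.

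The other presynaptic and secreted genes had no call at P14. Ptprf had 92.8, 96.7 and 131 CPM in the controls and 122, 126 and 121 CPM in the knockouts, so that control 3 alone exceeded the knockouts, and its log2 fold change was 0.21 (SE 0.12). Cbln1 had the highest fitted value of all members, 0.58 (SE 0.21), at low levels of 8.02, 8.31 and 6.003 CPM in the controls and 10.9, 7.84 and 14.6 CPM in the knockouts. Knockout 2 fell among the controls, and the edgeR Benjamini-Hochberg adjusted p was 0.209. Cntnap2, a contactin-associated protein of axons, had 153, 151 and 158 CPM in the controls and 134, 148 and 134 CPM in the knockouts, with all knockouts lower by a log2 fold change of -0.14 (SE 0.07).

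Among the adhesion proteins and latrophilins 10 fitted values were higher and 9 lower at P14, with a median of 0.00. Lrrtm3 (ENSMUSG00000042846; chromosome 10, 63928472 to 64090277, minus strand), a leucine-rich repeat partner of neurexins, had 18.5, 16.1 and 14.8 CPM in the controls and 21.0, 21.8 and 22.4 CPM in the knockouts. All knockouts were above all controls, and the log2 fold change of 0.41 (SE 0.11) missed the threshold (edgeR Benjamini-Hochberg adjusted p = 0.0656). Lrrtm4, another neurexin partner and one found in dentate granule cells, was the other way, at 21.8, 25.9 and 18.3 CPM in the controls and 17.4, 17.6 and 17.5 CPM in the knockouts. Its groups did not overlap either, with a log2 fold change of -0.32 (SE 0.12) (edgeR Benjamini-Hochberg adjusted p = 0.222), and an antisense gene covers 25.1% of its exonic bases, which unstranded counts cannot separate.

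Nlgn2 had 258, 246 and 277 CPM in the P14 controls and 306, 302 and 282 CPM in the knockouts, without overlap, and a log2 fold change of 0.20 (SE 0.07). Nlgn1, of excitatory synapses, was lower in all knockouts by -0.09 (SE 0.07), while Nlgn3 was level at 0.01 (SE 0.09). For Nlgn3 a gene on the same strand shares 41.2% of the exonic bases, so its counts are uncertain. Flrt1 had 18.6, 16.6 and 22.8 CPM in the controls and 21.9, 25.6 and 21.9 CPM in the knockouts, with overlap through control 3 and a log2 fold change of 0.27 (SE 0.12).

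All 3 SHANK genes had higher fitted values in the P14 knockouts, and none passed the test. Shank1 had 478, 477 and 671 CPM in the controls and 626, 692 and 629 CPM in the knockouts. Control 3 was as high as the knockouts and the other controls were far below, and the log2 fold change was 0.27 (SE 0.13). Shank2 had 234, 227 and 275 and 278, 303 and 275 CPM, without overlap, and Shank3 370.4, 329.9 and 427 and 440.0, 449.8 and 426 CPM, overlapping through control 3. Their log2 fold changes were 0.23 (SE 0.08) and 0.23 (SE 0.09).

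Dlgap2 repeated this arrangement, with 49.98, 41.1 and 70.7 CPM in the controls and 64.5, 69.2 and 61.6 CPM in the knockouts at P14. Dlgap3 did not overlap, at 375, 328 and 348 and 399.7, 429.9 and 420.4 CPM, with a log2 fold change of 0.26 (SE 0.07) and an edgeR Benjamini-Hochberg adjusted p of 0.0703. Of the HOMER genes Homer3 was lower in fitted value, at 32.7, 28.9 and 32.2 CPM in the controls and 28.2, 29.8 and 24.3 CPM in the knockouts (log2 fold change -0.18 (SE 0.10)), with 25.4% of its exonic bases shared with an antisense gene. Camk2a had 4036, 4024 and 4093 CPM in the controls and 4456, 4840 and 4042 CPM in the knockouts, so the knockouts were more spread than the controls, with a log2 fold change of 0.15 (SE 0.07). Ddn, which fell at P0, was level here, at 1293, 1183 and 1089 CPM in the controls and 1149, 1356 and 1062 CPM in the knockouts (log2 fold change 0.01 (SE 0.09)).

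The P14 count depended on single libraries. In 10 of 46 members the groups overlapped only through control 3, more than through any other P14 library, and so they did in 15.2% of all tested genes, against 3.21% to 6.43% for each other library. Without control 3, 15 members were called, 14 higher and 1 lower, but the share of all tested genes called rose as well, to 10.3% (5.84% higher, 4.5% lower). The higher ones were Nrxn2, Ptprf, Nlgn2, Lrrtm3, Flrt1, Adgrl3, Shank1, Shank2, Shank3, Dlg2, Dlg4, Dlgap2, Dlgap3 and Homer2, and the lower one was Lrrtm4. Log2 fold changes without it were 0.46 for Nrxn2, 0.26 for Dlg4, 0.46 for Shank1 and 0.53 for Dlgap2. Ptprf went to 0.39, Flrt1 to 0.41, and the scaffold genes Shank2 and Shank3 to 0.33 and 0.34. Without any other single P14 library, 0 members passed, and Nrxn2 kept log2 fold changes of 0.34 to 0.46 and Dlg4 of 0.25 to 0.29 over all 6 fits.

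**Figure D4:**
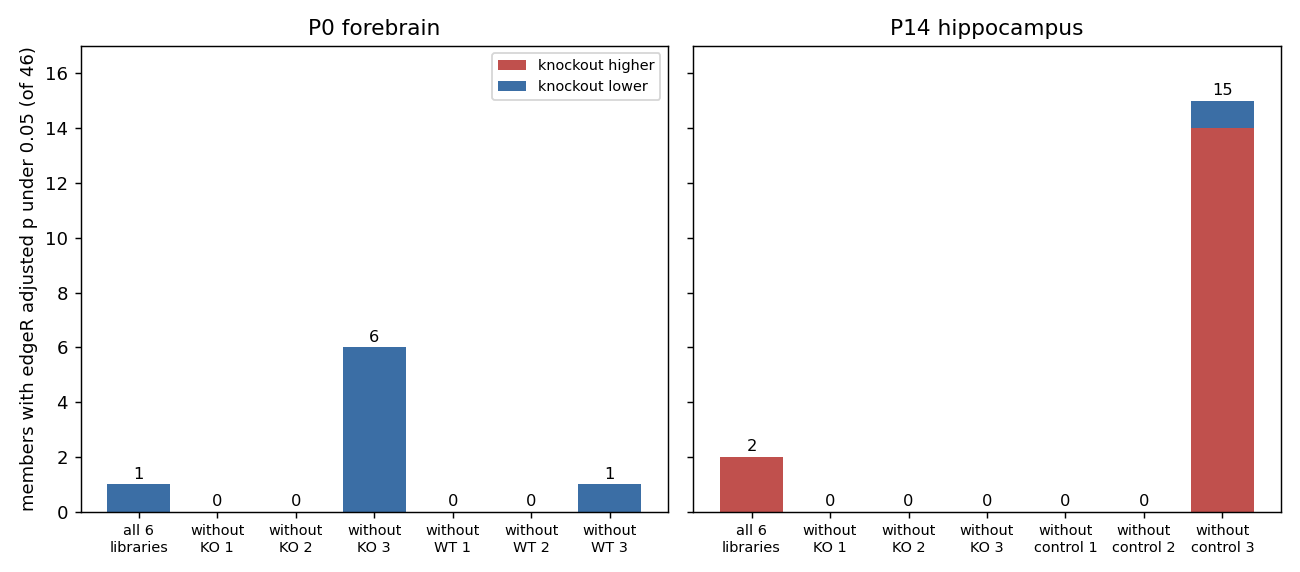
Number of the 46 genes with an edgeR adjusted p under 0.05 (y axis) with all 6 libraries and without each library in turn, in P0 forebrain (left) and P14 hippocampus (right); red is knockout higher, blue knockout lower. The count at P14 is 15 without control 3 and 0 without any other library, and at P0 it is 6 without knockout 3.

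Markers of hippocampal and neighbouring regions differed between the P14 groups too. The 8 dentate granule markers summed to 543 to 584 CPM in the controls and 392 to 422 CPM in the knockouts (4 of 8 called lower: Prox1, Dsp, C1ql2 and Calb1). The 8 deep-layer cortex markers summed to 301 to 315 CPM in the controls and 354 to 382 CPM in the knockouts (5 of 8 called higher: Fezf2, Foxp2, Cplx3, Ccn2 and Tbr1), and the 8 striatal markers to 73.4 to 103.0 and 112 to 198 CPM (1 of 8 called higher, Drd1). Sums were also lower in every knockout for the cerebellar granule list (68.7 to 79.2 and 38.4 to 45.2 CPM, Neurod1 called lower at -0.82) and the endothelial list (133 to 141 and 107 to 119 CPM), and higher for the oligodendrocyte precursor list (373 to 398 and 406 to 456 CPM). The cerebellar granule sum was mostly Neurod1, with a control mean of 73.7 CPM. Of that list 2 of 4 genes were tested at P14, and the other, Cbln3, had a fitted value of 0.37 and was not called.

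The CA pyramidal list overlapped at P14, at 1161 to 1464 CPM in the controls and 1117 to 1191 CPM in the knockouts, with 3 of 8 called (Bok and Iyd lower, Mpped1 higher). The thalamus list (Lef1 called lower) and the interneuron list (Gad1 called lower) overlapped as well, as did the pan-neuronal, astrocyte, oligodendrocyte, microglial, choroid plexus and progenitor lists, with 0 called. The part of these shifts in the members' values was not tested.

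Whether the knockout effect differed between the P0 and P14 experiments was tested by an interaction term over all 12 libraries. In 4 members, Nrxn2, Lrrtm3, Shank3 and Ddn, the effect was more positive at P14, and in none was it more negative. These are 4 of 46, where 1.79% of the 18189 genes tested were called (1.37% more positive, 0.423% more negative). The median difference over the members was 0.09, and 17 members had an unadjusted p under 0.05, all with a more positive effect at P14. Of all tested genes 15.3% had such a p in either direction. That share was not split by direction, so the direction of the 17 has no background beside it. Of the 46, 20 had a lower fitted value at P0 and a higher one at P14, 15 were lower in both, 9 higher in both and 2 higher at P0 and lower at P14. Age, tissue, Cre line, library number series and the genotype of the controls all differ between the experiments and cannot be told apart.

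For Ddn the difference of effects was 0.76 (SE 0.16), with an edgeR Benjamini-Hochberg adjusted p of 0.0157. The P0 effect was -0.77 and the P14 effect 0.01. For Lrrtm3 it was 0.62 (SE 0.15) (edgeR Benjamini-Hochberg adjusted p = 0.0344). Neither effect passed its own test (edgeR Benjamini-Hochberg adjusted p = 0.302 at P0 and 0.0656 at P14). At P0 the wild types had 31.1, 33.4 and 28.6 CPM and the knockouts 26.9, 28.6 and 24.6 CPM, every knockout lower, and at P14 every knockout was higher.

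For Shank3 the difference was 0.56 (SE 0.14) (edgeR Benjamini-Hochberg adjusted p = 0.0451), from -0.35 at P0 and 0.23 at P14. For Nrxn2 it was 0.47 (SE 0.12) (edgeR Benjamini-Hochberg adjusted p = 0.0433), from -0.10 at P0 and 0.39 at P14. At P0 the wild types had 417, 445 and 466 CPM and the knockouts 406, 376 and 463 CPM, with overlap through knockout 3. Dlg4, which rose at P14, did not pass this test (0.28 (SE 0.10), edgeR Benjamini-Hochberg adjusted p = 0.198), so its effect is not shown to differ between the experiments. At P0 Dlg4 had 375, 384 and 379 CPM in the wild type and 364, 346 and 409.8 CPM in the knockouts.

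Single libraries decided this count as well. Without P14 control 3, 11 members were called, all more positive at P14, against 4.85% of all tested genes (3.06% more positive, 1.78% more negative), and these added Ptprf, Cntnap4, Adgrl3, Shank1, Shank2, Dlgap2 and Homer2 to the 4 above. Without P14 control 2, P0 knockout 1, P0 knockout 2 or P0 wild type 2, 0 members passed.

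Of the 4 members with a difference between experiments, Lrrtm3 and Shank3 have an entry in the RefSeq table of start sites used here, and the bases before their starts are shown because both had a more positive effect at P14 while the make-up of that region differs between them. Each is read 5′ to 3′ on the gene's own strand of GRCm38.p6, up to 250 bases before the RefSeq start and outside every annotated exon of the gene. The Lrrtm3 stretch is chr10:64090278-64090505 on the minus strand, 228 bases, and the Shank3 stretch is chr15:89499358-89499607 on the plus strand, 250 bases. Capitals mark matches to the motifs searched on both strands: the GC box GGGCGG, the E-box CAGCTG, the cAMP response element TGACGTCA and the TATA box TATAAA. A GC box on the other strand reads CCGCCC here.
Lrrtm3: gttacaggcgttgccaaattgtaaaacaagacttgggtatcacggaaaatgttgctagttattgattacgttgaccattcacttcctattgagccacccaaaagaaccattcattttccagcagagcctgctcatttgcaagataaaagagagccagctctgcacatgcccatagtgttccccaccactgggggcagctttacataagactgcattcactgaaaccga
Shank3: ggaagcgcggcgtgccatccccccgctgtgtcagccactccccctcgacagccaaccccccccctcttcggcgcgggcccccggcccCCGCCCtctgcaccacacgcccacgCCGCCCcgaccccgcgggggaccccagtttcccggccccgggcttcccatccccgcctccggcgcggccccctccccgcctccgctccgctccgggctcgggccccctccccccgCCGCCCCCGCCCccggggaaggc

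The Shank3 stretch was 82.4% G and C and held 4 GC boxes, all read on the other strand and none overlapping another motif. The Lrrtm3 stretch was 44.7% G and C and held none of the 4 motifs. Over 250 bases before all 32851 starts in the table, the median G and C share was 52.4%, 32.7% held a GC box, 13% the E-box, 1.55% the cAMP response element and 12.4% the TATA box. Starts were found for 32 of the 46 members, 52 in all, and 36.5% of those held a GC box, 11.5% the E-box, 1.92% the cAMP response element and 9.62% the TATA box. These are matches of letters and not sites of binding.

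Members also differed in the GC content of their longest annotated transcript, from 34.7% in Slitrk4 to 63.9% in Dlgap3. At P14 the log2 fold change of the members rose with it, with a Pearson r of 0.496 over 46 genes, against 0.190 over 17188 tested genes. At P0 it was 0.0757 over the members and 0.0495 over 16158 tested genes. Genes share libraries and are not independent replicates, so these are descriptions. The 23 members of higher GC content had a median of 0.15 at P14 and the 23 of lower GC content 0.00, and an offset for GC content in the fit brought these to 0.10 and 0.07. Under that offset the calls at P14 were Lrrtm3, Dlg2 and Dlg4, with 1.6% of all tested genes called, and the value of Slitrk4, the member of lowest GC content, went from -0.13 to 0.03.

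**Figure D5:**
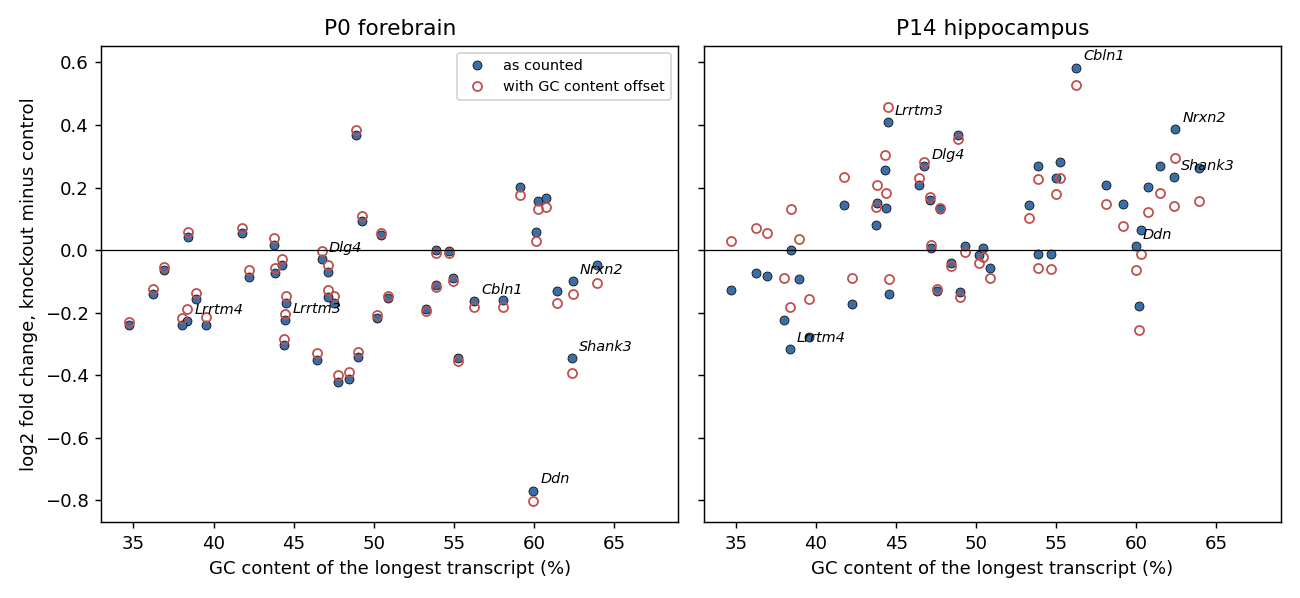
Log2 fold change, knockout minus control (y axis), against GC content of the longest transcript in % (x axis) for the 46 genes in P0 forebrain (left) and P14 hippocampus (right); filled points as counted, open red points with an offset for GC content. At P14 members of higher GC content lie higher as counted, and the offset narrows the gap between them and members of lower GC content.

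Another 53 synaptic organizers and scaffolds, outside the 46, were measured for context, and all 53 were tested. Like the members, they were chosen with earlier results of these data known. Their shares of calls, here and below, are therefore no test of enrichment. At P0 1 of 53 fell and none rose, where 0.909% of all tested genes were called: Nrgn, neurogranin, a calmodulin-binding protein of dendrites, went from 165, 154 and 130.4 CPM in the wild type to 93.6, 90.2 and 121 CPM in the knockouts (log2 fold change -0.56 (SE 0.12), edgeR Benjamini-Hochberg adjusted p = 0.0491). At P14 3 rose, Igsf21, Adgrl2 and Camk2d, and 3 fell, Cadm2, C1ql2 and C1ql3, which is 11.3% of the list against 1.99% of all tested genes. Adgrl2, the latrophilin not among the 46, went from 52.5, 55.2 and 52.7 to 91.1, 92.0 and 89.2 CPM (log2 fold change 0.77 (SE 0.07)), and Igsf21, a neurexin partner at inhibitory synapses, from 40.5, 37.2 and 41.6 to 61.7, 63.9 and 72.5 CPM (log2 fold change 0.74 (SE 0.09)).

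The 3 that fell at P14 were Cadm2, a synaptic cell adhesion molecule (-0.55), and the secreted C1q-like proteins C1ql2 (-0.89) and C1ql3 (-0.48), and C1ql2 is also on the dentate granule list above. In the interaction 5 of the 53 had a more positive effect at P14, Igsf21, Adgrl2, Apba1, Camk2d and Nrgn, and none a more negative one, which is 9.43% of the list against 1.79% of all tested genes. The medians of this list were -0.10 at P0 and 0.11 at P14, beside -0.14 and 0.07 for the 46 members.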

How the data were processed

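The authors deposited 1 file per mouse with read counts per Ensembl gene, not normalized. The submitters' processing notes name STAR 2.7.5a, edgeR 3.12 and mm10, with no role given for each. Per the labels' protocols, RNA was extracted with Trizol, treated with DNase I, made into TruSeq libraries and read as 150 bp pairs on a HiSeq instrument. Since each strand column held about as many reads as the other (49.88% to 49.98% for the first), the unstranded column was used. Symbols, lengths and GC content came from GENCODE vM21 (GRCm38), and 55227 of 55487 identifiers had a symbol.

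Replicate numbers follow accession order and pair no mice. The labels call each sample an individual mouse. Replicate pairs differed by more than sampling noise (chi-square per degree of freedom 2.93 to 17.5).

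Fits used edgeR 4.0.16 in R 4.3.3: filterByExpr, TMM, robust glmQLFit, glmQLFTest, Benjamini-Hochberg adjustment over all genes tested and a threshold of 0.05. P0 and P14 were each fitted on 6 libraries, the interaction and the control comparison on 12. The SE is the log2 fold change divided by the square root of its F. An exact permutation test over 3 against 3 libraries cannot go below p = 0.1, so single values rest on the fit across genes. The common dispersion corresponded to a coefficient of variation of 0.104 (P0) and 0.0998 (P14). The script was tested on simulated data.

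The members and lists were chosen with earlier results of these data known. All 46 members are accounted for. Values in every library are given for members that passed a test, for the member of each role with the largest fold change at a mean of at least 1 CPM, and for the 3 highest and 3 lowest levels per kb in each control group. A few more were named after their values were seen (at P14 Nrxn3, Lrrtm4, Nlgn1, Nlgn3, Slitrk4, Shank2, Shank3, Dlg1, Dlg2, Dlg3, Dlgap3 and Ddn). Alternatives were DESeq2 1.42.0, the strand column with more reads, normalization by RLE or upper quartile, other filters on low counts, non-robust fitting, offsets for length or GC content, other thresholds, the library series, 1 fit on all libraries, and leaving out each library. Exon 7 and isoforms were not analysed here. One marker gene, and the summed level of the list that holds it, are not reported here.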

Additional observations from a re-analysis of the deposited data

Results flagged for a closer look

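The knockout effect differed between the P0 and P14 experiments, by the interaction term of edgeR's fit to all 12 libraries, in 4 members. The difference (P14 effect minus P0 effect, log2) was 0.76 for Ddn, 0.62 for Lrrtm3, 0.56 for Shank3 and 0.47 for Nrxn2. Ddn was lower in 3 of 3 knockouts than in any wild type at P0 and overlapped at P14, and Lrrtm3 was lower in 3 of 3 knockouts at P0 and higher in 3 of 3 at P14. Over the 12 fits that each leave out 1 library, Ddn passed in 8, Lrrtm3 in 4, Shank3 in 2 and Nrxn2 in 2.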

How the results depend on the processing

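The members called at P0, at P14 or in the interaction kept the direction of that effect in every alternative run. Of the other knockout effects of members that were followed through these runs, those of 5 uncalled members at P14 changed sign in some. The P0 values given for Lrrtm4, Il1rapl1, Cbln1, Cbln4 and Ptprf were not followed in this way. With a GC content offset Nlgn1 was at 0.0350, Nlgn3 at -0.00532, Slitrk4 at 0.0291, Dlg3 at -0.0218 and Ddn at -0.0635. Nlgn3 was at -0.000394 with a length offset, and Dlg3 at -0.00527 in 1 fit on all 12 libraries. Leaving out 1 library gave -0.0808 (without control 3) to 0.0667 for Nlgn3, -0.0188 (without control 2) to 0.0474 for Dlg3 and -0.0888 (without knockout 2) to 0.0853 for Ddn. At P0 the call of 1 member (0.909% of all tested genes) became 3 with DESeq2 (2.36%), 5 with every gene kept (1.99%), 4 with a GC content offset (2.28%), 3 at an adjusted p under 0.1 (2.86%), 4 with the library series as a term (2.87%) and 13 in the first series alone (12.9%). Leaving out 1 library gave 0 to 6 (0 without knockout 1, knockout 2, wild type 1 or wild type 2, and 6, with 4.69% of all tested genes, without knockout 3). At P14 the 2 calls (1.99%) became 1 with the strand column of more reads (1.45%), with RLE (2%), with non-robust fitting (1.62%) and with 1 fit on all 12 libraries (1.83%), 5 with DESeq2 (3.1%) and at an adjusted p under 0.1 (3.97%), 7 with every gene kept (2.48%) and 4 with a length offset (3.2%), and leaving out 1 library gave 0 to 15 (15, with 10.3% of all tested genes, without control 3, and 0 without any other, each with fewer of all tested genes called than with all 6 libraries). In the interaction the 4 calls (1.79%) became 2 with non-robust fitting (1.42%) and with the strand column of more reads (1.14%) and 7 with every gene kept (1.83%), and leaving out 1 library gave 0 to 11 (11, with 4.85%, without P14 control 3). Between control groups every alternative gave 40 to 42 calls. The fall of Ddn at P0 was called in 13 of 13 alternatives other than leaving out 1 library, Nrxn2 at P14 in 10 of 11 and Dlg4 in 6 of 11. The causes were not tested. No paired analysis was possible because replicate numbers were given in accession order and pair no mice.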

Other observations

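Among the members the extreme libraries were not spread evenly. The same counts were not made over all tested genes, so a trait of the libraries and one of the members cannot be told apart. Over the 6 libraries of P0, knockout 3 was the lowest for 20 of the 46 members, knockout 2 for 8 and knockout 1 for 7, and wild type 1 was the highest for 12. Over the 6 libraries of P14, control 2 was the lowest for 18 members, knockout 2 the highest for 12 and control 3 the highest for 10.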
